A study of Mus musculus with 4 samples.

Results

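The AP-1 and immediate early transcription factor genes Fos, Fosb, Fosl1, Fosl2, Jun, Junb, Jund, Atf3, Egr1 and Maff were followed in 2 mouse mammary tumor cell lines. They were taken by name, with every probe set that carries 1 of these symbols and no other, which gave 14 of 45037 probe sets for 10 of 18193 genes. Fosl1, Fosl2, Jun and Jund had 2 probe sets each and the other 6 genes had 1. A gene is described by its lead probe set, the one with the highest mean over the 4 arrays, and the second probe set is given beside it. All 14 probe sets lay above the filter on low values.

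The groups were cells given 2 µg/ml doxycycline for 24 hours and untreated cells, each from lines 8534 and 8542. The lines were derived from mammary tumors of 2 female MMTV-tTA/TOP-ICN1 mice (strain FVB/N;B6), in which the MMTV promoter drives the tetracycline-regulated activator tTA and tTA drives human intracellular NOTCH1 (ICN1). Doxycycline shuts ICN1 off, so the treated cells were ICN1 off and the untreated cells ICN1 on, and both carried both transgenes and grew in serum. Each line came from 1 tumor and gave 1 array per condition, so that n is 2 lines throughout. Cells without the transgene given doxycycline were not analysed here, and the loss of ICN1 and the drug itself cannot be told apart.

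AP-1 is a dimer of basic leucine zipper (bZIP) proteins, usually a FOS family protein with a JUN family protein, which binds the sequence TGACTCA. Growth factors and stress induce the genes of many of its subunits within minutes through MAP kinases, the serum response factor SRF and its ELK cofactors, without new protein synthesis, and this immediate early response also takes in EGR1, ATF3 and MAFF. In mammary epithelium and breast cancer cells AP-1 is known for its part in proliferation, invasion and the response to growth factors. FOS, FOSB and JUN activate transcription strongly, FOSL1 (FRA-1) and FOSL2 (FRA-2) lack a strong activation domain of their own, and MAFF is a small MAF protein with no activation domain.

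Across the arrays the lead probe sets of Fosl2 and Atf3 rose with doxycycline in both lines, and no member fell past the test. In limma, with Benjamini-Hochberg adjustment over all 33778 probe sets tested, 2 of 10 members were called higher at an adjusted p under 0.05, against 4.76% of all genes tested. None of the 10 was called lower, against 6.95% of all genes tested. At an unadjusted p under 0.05 the same fit gave 5 members, of which Fosl2, Atf3 and Jund were higher and Jun and Egr1 lower. The share of all genes tested at that threshold was not taken, so this count is not read as a result about the members. By the rule of the study's methods, more than 2-fold in both lines, 1 member (Fosl2) was higher, against 2.33% of all genes tested, and 0 were lower, against 4.18%. Of the 14 probe sets, 2 were called higher, against 3.69% of all probe sets tested, and 0 lower, against 5.54%. Past 2-fold in both lines 1 of them was higher, against 3.44% of all probe sets, and 0 were lower, against 4.4%. With so few genes, 1 call more or fewer moves the members' share by 10 percentage points. In 5 members the changes had opposite signs in 8534 and 8542, against 32.4% of all genes tested, and the 8542 values of Junb and Fos among them were near 0.

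**Figure D1:**
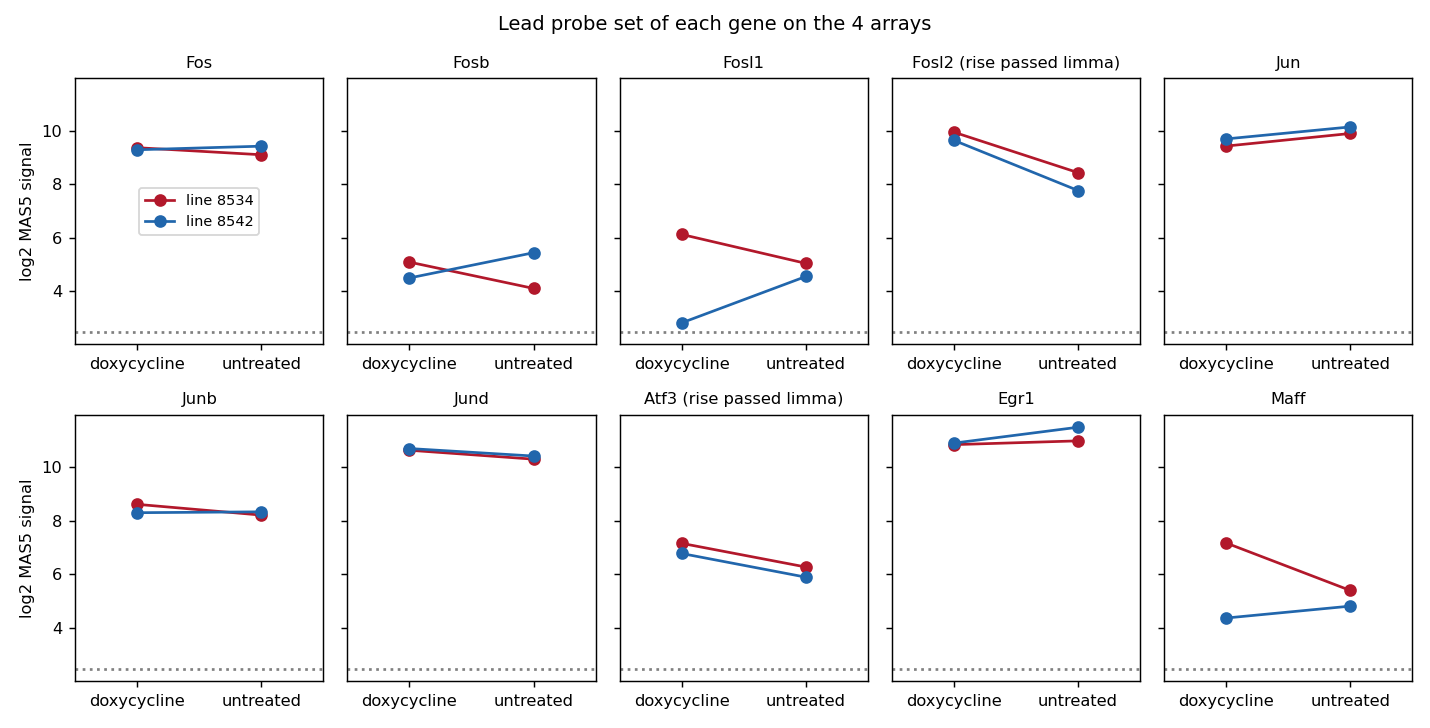
Each panel plots 1 gene by its lead probe set, with the log2 MAS5 signal on the vertical axis and doxycycline left of untreated; points are arrays, a segment connects both conditions in 1 cell line, and a dotted horizontal rule stands at 5.52 units, a floor set from all values (20th percentile). Both Fosl2 segments lie higher at doxycycline, as do both Atf3 segments, whereas the segments of Fosb, Fosl1 and Maff slope in opposite directions.

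Promoter sequences are shown for 4 members, the 2 that were called, Jun as the member just outside the call, and Maff as 1 of the members with changes of opposite sign in the lines. They are RefSeq sequences on GRCm38.p6, read 5′ to 3′ on the strand of the gene, 250 bases before and 50 after the annotated start. Capitals mark matches to a small set of motifs, searched on both strands: the AP-1 site TGACTCA, the cAMP response element (CRE) TGACGTCA, the shorter CRE form TGACGT, the site TGACATCA, the ATF4-type composite site TGATGNAA, the EGR1 site GCGNGGGCG, the RBPJ core TGGGAA, and the CArG box bound by SRF. RBPJ is the DNA-binding partner of ICN1. In the Fosl2 window (chr5:32136222-32136521, plus strand) the capitals are an EGR1 site.
Fosl2: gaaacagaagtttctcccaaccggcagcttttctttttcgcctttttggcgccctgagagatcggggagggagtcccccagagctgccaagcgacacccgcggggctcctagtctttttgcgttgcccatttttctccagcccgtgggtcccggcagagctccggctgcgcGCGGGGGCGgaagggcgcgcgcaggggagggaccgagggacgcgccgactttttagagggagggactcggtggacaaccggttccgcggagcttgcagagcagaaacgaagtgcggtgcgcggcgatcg
In the Atf3 window (chr1:191183284-191183583, minus strand) they are an ATF4-type composite site and then the shorter CRE form, both on the opposite strand.
Atf3: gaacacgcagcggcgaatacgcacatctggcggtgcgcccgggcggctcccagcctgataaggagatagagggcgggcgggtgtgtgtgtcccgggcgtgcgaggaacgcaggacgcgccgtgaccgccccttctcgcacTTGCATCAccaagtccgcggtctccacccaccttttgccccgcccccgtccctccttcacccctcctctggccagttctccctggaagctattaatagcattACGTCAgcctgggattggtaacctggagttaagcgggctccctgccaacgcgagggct
In the Jun window (chr4:95052173-95052472, minus strand) they are an RBPJ core and then TGACATCA.
Jun: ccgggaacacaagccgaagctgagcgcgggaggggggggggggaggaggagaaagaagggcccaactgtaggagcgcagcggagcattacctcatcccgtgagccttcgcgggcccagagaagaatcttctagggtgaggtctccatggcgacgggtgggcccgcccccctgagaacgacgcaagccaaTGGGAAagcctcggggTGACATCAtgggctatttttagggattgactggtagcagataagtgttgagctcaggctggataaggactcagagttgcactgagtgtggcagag
For Maff, 1 of its 3 windows is shown (chr15:79347270-79347569, plus strand), picked because it holds the matches marked. Its start lies inside the gene, which as annotated begins at 79346621. The capitals are an EGR1 site and then a CRE, within which the shorter form also lies.
Maff: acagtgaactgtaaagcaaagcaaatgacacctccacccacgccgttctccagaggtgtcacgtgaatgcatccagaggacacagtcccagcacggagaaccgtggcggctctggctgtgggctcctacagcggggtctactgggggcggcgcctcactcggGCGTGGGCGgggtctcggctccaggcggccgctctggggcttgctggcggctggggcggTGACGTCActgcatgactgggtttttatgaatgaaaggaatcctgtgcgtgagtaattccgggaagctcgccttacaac

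The table of promoter windows held 10 windows for 8 of the 10 members, 3 of them for Maff, among 32851 windows in all. The EGR1 site of Fosl2 lay at -79 to -71 from the start, and that motif was also found in windows of Fosb and Maff and in 5.55% of all windows. The composite site of Atf3 lay at -110 to -103 and its shorter CRE form at -8 to -3. The composite site was found in 3.97% of all windows and the shorter CRE form, which Fos and Maff windows held too, in 7.51%. In Jun, TGACATCA lay at -45 to -38 and the RBPJ core at -61 to -56. TGACATCA was found in 3.62% of all windows, a Maff window among them. The RBPJ core, also found in the Jund window, was in 25.6%. In the Maff window shown, the CRE lay at -29 to -22, with a match in 1.79% of all windows, and the EGR1 site at -88 to -80. TGACTCA (5.2% of all windows) and the CArG box (1.63%) had no match in the 10 member windows, which says only that these letters are not there. A match is a description of the sequence, and binding was not measured.

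Among the FOS family, Fosl2, which encodes FRA-2, had the largest mean change of the 10 lead probe sets. Its lead probe set (1437247_at) gave 985 and 797 units in doxycycline-treated 8534 and 8542 cells, against 345 and 217 units in untreated cells, where a unit is 1 unit of MAS5 signal. Both treated arrays were well above both untreated arrays. The rise was 2.86-fold in 8534 and 3.67-fold in 8542. The mean log2 change was 1.70 ± 0.26 (SD, n = 2 lines), with a standard error of 0.14 in limma, a 95% interval of 1.36 to 2.03 and an adjusted p of 0.00102. In 8534, 96.7% of all probe sets tested had a lower change than this one, and in 8542 97.5%. The second probe set (1422931_at) gave 101 and 69.8 units with doxycycline, against 57.0 and 48.5 units untreated. Its groups did not overlap either, but the mean log2 change was smaller, 0.67 ± 0.21 (SD, n = 2 lines), and was not called (limma adjusted p = 0.124). The 95% intervals of the 2 probe sets, 1.36 to 2.03 and 0.15 to 1.20, did not meet, so that the size of the Fosl2 rise depends on the probe set read.

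Fos itself, the founding member of the family, gave 659 and 624 units in doxycycline-treated 8534 and 8542 cells, against 548 and 685 units in untreated cells. The treated values lay between the untreated ones. The log2 change was 0.26 in 8534 and -0.13 in 8542, a mean of 0.07 ± 0.28 (SD, n = 2 lines) with a 95% interval of -0.27 to 0.40 (limma adjusted p = 0.847). Changes of the size seen for the lead probe set of Fosl2 lie outside that interval.

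Fosb, whose product is a strong partner of JUN proteins, gave 33.9 and 22.5 units in doxycycline-treated 8534 and 8542 cells, against 17.1 and 43.3 units in untreated cells. The treated array was the higher one in 8534 and the lower one in 8542. The ratio of doxycycline to untreated was 1.98 in 8534, and that of untreated to doxycycline was 1.93 in 8542. These nearly cancelled in the mean log2 change of 0.02 ± 1.36 (SD, n = 2 lines), which was not called (limma adjusted p = 0.988, 95% interval -1.14 to 1.18). In untreated cells the level in 8542 was 2.53 times that in 8534.

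Fosl1, which encodes FRA-1, the FOS family member most often tied to invasion of breast cancer cells, split between the lines in the same way. Its lead probe set (1417487_at) gave 69.6 and 7.03 units in doxycycline-treated 8534 and 8542 cells, against 32.8 and 23.4 units in untreated cells. The highest and the lowest of the 4 values were thus both from treated cells. The ratio of doxycycline to untreated was 2.12 in 8534, and that of untreated to doxycycline was 3.33 in 8542. The treated 8542 value lay little above the floor of 5.52 units, so the size of the fall in that line is uncertain. The mean log2 change of -0.33 ± 1.99 (SD, n = 2 lines) was not called (limma adjusted p = 0.829). It was -0.12 when the floor value was added to every signal as a pseudocount. The second probe set (1417488_at) gave 20.9 and 3.12 units with doxycycline, against 19.2 and 5.40 units untreated. Its signs were the same, 0.12 in 8534 and -0.79 in 8542 on the log2 scale (limma adjusted p = 0.856). It was the only one of the 14 probe sets with a value under the floor, the 20th percentile of all values (5.52 units), and both 8542 arrays were under it, so that its fold in that line is not well measured.

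In the JUN family the 3 genes differed in sign. Jun, the main partner of FOS, gave 687 and 827 units in doxycycline-treated 8534 and 8542 cells, against 952 and 1129 units in untreated cells. Both treated arrays lay below both untreated arrays, and the change was nearly the same in the lines, -0.47 in 8534 and -0.45 in 8542 on the log2 scale. The mean log2 change of -0.46 ± 0.02 (SD, n = 2 lines), a ratio of untreated to doxycycline of 1.38, missed the threshold narrowly (limma adjusted p = 0.0506, 95% interval -0.73 to -0.19). The second probe set (1448694_at) gave 388 and 496 units with doxycycline, against 490 and 655 units untreated. Here the groups overlapped, while the change had the same sign in each line, with a mean of -0.37 ± 0.05 (limma adjusted p = 0.132). With a filter at the median level, with a floor, or with a pseudocount, the lead probe set passed (limma adjusted p = 0.0367, 0.0419 and 0.0494). Jun did not pass with median centring, quantile normalization, no filter or gene means (limma adjusted p = 0.0615, 0.0744, 0.0804 and 0.0845). Nor did it pass without an intensity trend in the variance or without cell line in the model (limma adjusted p = 0.377 and 0.396).

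Jund, the JUN family member that is expressed most constantly in resting cells, gave 1596 and 1669 units in doxycycline-treated 8534 and 8542 cells, against 1266 and 1373 units in untreated cells. Both treated values lay above both untreated values. The mean log2 change was 0.31 ± 0.04 (SD, n = 2 lines) and was not called (limma adjusted p = 0.14, 95% interval 0.05 to 0.56). Its second probe set (1440265_at) gave 30.7 and 20.6 units with doxycycline, against 16.0 and 20.4 units untreated, so that the treated value was above the untreated one in 8534 and level with it in 8542 (limma adjusted p = 0.59). Junb, a weaker activator that can restrain JUN, gave 393 and 316 units with doxycycline, against 297 and 324 units untreated. Its log2 change was 0.40 in 8534 and -0.03 in 8542, and the mean of 0.18 ± 0.31 (SD, n = 2 lines) was not called (limma adjusted p = 0.564).

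Atf3 encodes a stress-inducible bZIP protein that pairs with JUN proteins and often represses its targets, and it is a known target of ATF4. Its 1 probe set (1449363_at) gave 143 and 110 units in doxycycline-treated 8534 and 8542 cells, against 77.3 and 59.5 units in untreated cells. Both treated arrays were above both untreated arrays. The rise was 1.85-fold in each line, a mean log2 change of 0.89 with a standard error of 0.19 in limma, a 95% interval of 0.43 to 1.34 and an adjusted p of 0.0321. It did not reach 2-fold in either line, and so passed the test but not the rule of the study's methods.

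Both calls rested on the model chosen. Without the intensity trend in the variance no probe set passed, and the adjusted p was 0.227 for Fosl2 and 0.257 for Atf3. Without cell line in the model it was 0.11 for Fosl2 and 0.269 for Atf3. With no filter on low values the adjusted p of Atf3 was 0.0527. Of the other called genes named below, none passed without the trend, and without cell line Hey1 and Ccnd1 did (adjusted p = 0.0425 and 0.0264).

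**Figure D2:**
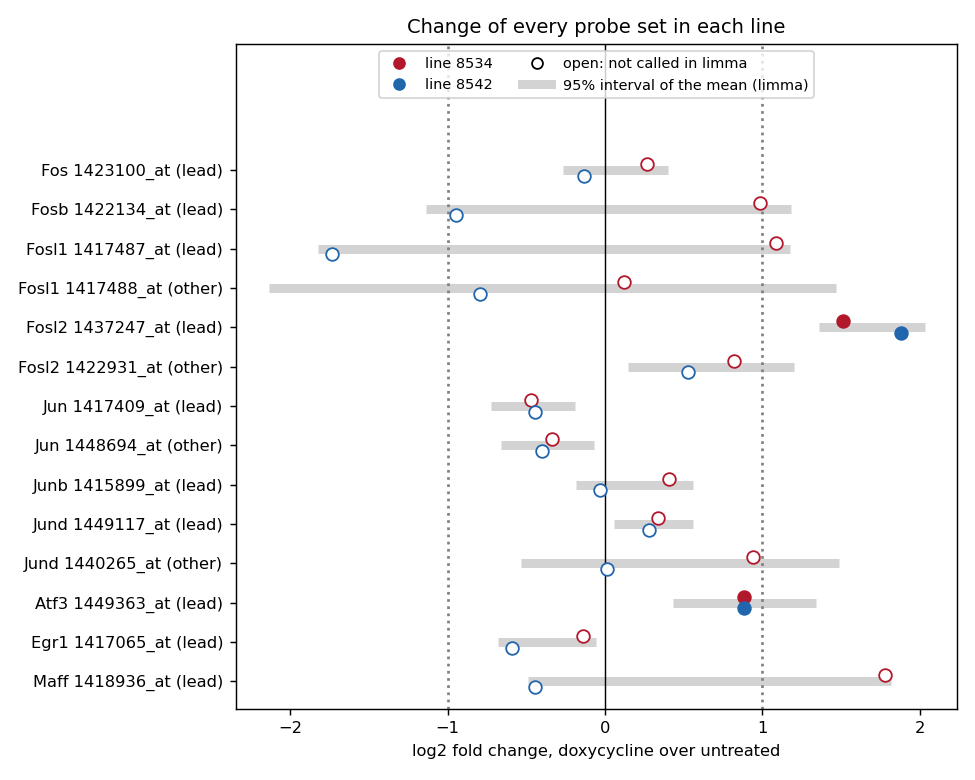
The horizontal axis is the log2 fold change of doxycycline over untreated for each of the 14 probe sets, with line 8534 in red above line 8542 in blue, filled where limma called the probe set, grey bars for the 95% interval of the mean and dotted lines at 2-fold. The lead probe set of Fosl2 lies past 2-fold in both lines, the Atf3 points share 1 position at 0.89, and the intervals of Fosb, Fosl1 and Maff span 0 widely.

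Egr1 encodes a zinc finger factor with its own GC-rich site, induced by the same SRF and ELK input as Fos. It gave 1846 and 1920 units in doxycycline-treated 8534 and 8542 cells, against 2036 and 2900 units in untreated cells. Both treated arrays lay below both untreated arrays, and the distance was larger in 8542. The ratio of untreated to doxycycline was 1.10 in 8534 and 1.51 in 8542. The mean log2 change of -0.37 ± 0.32 (SD, n = 2 lines) was not called (limma adjusted p = 0.152, 95% interval -0.68 to -0.06).

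Maff encodes the small MAF protein MafF, which pairs with NRF2-type and BACH factors and is induced by stress and growth factors. It gave 144 and 20.6 units in doxycycline-treated 8534 and 8542 cells, against 42.1 and 28.1 units in untreated cells. The treated 8534 array stood above the other 3, and the treated 8542 array was the lowest. The ratio of doxycycline to untreated was 3.43 in 8534, where 97.7% of all probe sets tested had a lower change, and that of untreated to doxycycline was 1.36 in 8542. The mean log2 change of 0.67 ± 1.57 (SD, n = 2 lines) was not called (limma adjusted p = 0.495).

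Taking the members as a group, 8 of 10 had a change above 0 in line 8534, against 50.9% of all genes tested, and 3 of 10 in line 8542, against 50%. The median log2 change of the 10 was 0.64 in 8534 and -0.29 in 8542, against 0.01 and 0.00 for all genes tested. Fosl2, Atf3 and Jund were above 0 in both lines, and Jun and Egr1 below 0 in both. Fos, Fosb, Fosl1, Junb and Maff had changes of opposite sign, which was 5 of 10 members against 32.4% of all genes tested. All 5 were above 0 in 8534 and below 0 in 8542. That was 5 of 10 members, against 16.6% of all genes tested. Of the 4886 genes tested with opposite signs, 2509 went this way. The gap between the lines (8534 minus 8542) was 2.82 for Fosl1, 2.22 for Maff and 1.93 for Fosb on the log2 scale, and 0.44 or less for Junb and Fos. That of Fosl1 rests in part on a treated 8542 value near the floor. None of these gaps could be tested, since giving each line its own response uses up every degree of freedom, and the smallest p of an exact two-sided test with n = 2 lines is 0.5. The genes were read from the same 4 arrays and are not independent of each other.

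**Figure D3:**
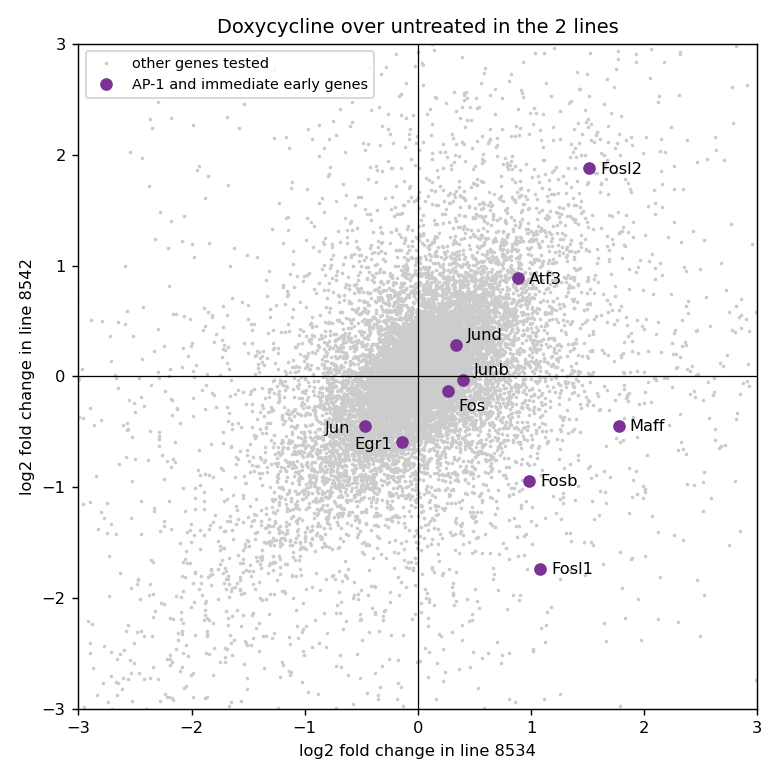
The log2 fold change of doxycycline over untreated in line 8534 (horizontal) is set against that in line 8542 (vertical), with the 10 members in purple and the lead probe sets of the other genes tested in grey; 312 genes lie outside the range of 3 either way. Fosl2 and Atf3 lie in the upper right, and Maff, Fosb and Fosl1 in the lower right, up in 8534 and down in 8542.

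Array quality was alike, and the arrays bore out their labels. The trimmed mean was 97.7 to 101.8 units, the median log2 value 4.87 to 4.93, and the 3′ to 5′ difference of the actin control probe sets 0.25 to 0.30 on the log2 scale. Of 8 NOTCH target genes 7 fell in limma (87.5%, against 6.95% of all genes tested). Hey1, a direct NOTCH target, gave 96.4 and 101 units with doxycycline in 8534 and 8542, against 1138 and 762 units untreated (limma adjusted p = 0.000283). Hes1, another, was not called, with log2 changes of -0.80 and -0.40 (limma adjusted p = 0.0579). No scan date or other batch was given for the arrays.

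The lines are not alike in the levels of their cell type markers. All 8 luminal markers were above the floor on all 4 arrays, with a summed signal of 26940 and 20600 units in doxycycline-treated 8534 and 8542 cells, against 21620 and 18730 units in untreated cells. The sum of 7 basal markers was 9571 and 318.3 units with doxycycline, against 6065 and 266.1 units untreated, and that of 7 fibroblast markers 1103 and 163.8 units with doxycycline, against 847.5 and 163.1 units untreated. The sum of 5 leukocyte markers was 354 and 131.4 units with doxycycline, against 194.7 and 120 units untreated, and that of 4 endothelial markers 106.3 and 136.2 units with doxycycline, against 246.1 and 127.2 units untreated. These sums are carried by a few abundant genes, and single markers went both ways. Of 6 basal markers tested, 3 were above 0 in 8534 and 4 in 8542, with a median log2 change of -0.11 in 8534 and 0.15 in 8542. Of 7 fibroblast markers, 4 were above 0 in 8534 and 5 in 8542 (medians 0.49 and 0.15), and of 4 leukocyte markers tested, 4 in 8534 and 2 in 8542 (medians 0.65 and 0.10). No basal, fibroblast or leukocyte marker was called in limma. Of 8 luminal markers 4 were called higher (50%, against 4.76% of all genes tested) and 1 lower (12.5%, against 6.95%). Of 3 endothelial markers tested, 1 was called lower (33.3%, against 6.95%) and 0 higher (against 4.76%). No marker was under the floor on all 4 arrays. The part of these cells in the split of Fosl1, Maff and Fosb was not tested, and in RNA of whole cultures fewer cells of a type and less RNA per cell cannot be told apart.

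The other genes of the pathway were read from lists of partners, regulators and targets. These lists were chosen with earlier results of these data known. A list's share beside that of all genes is therefore a description and not a test. Of 23 bZIP partners of AP-1, 19 were tested, of which 3 rose (15.8%, against 4.76% of all genes tested) and 0 fell in limma (against 6.95%), with a median log2 change of 0.29 in 8534 and 0.39 in 8542. Jdp2, a JUN dimerization protein that represses AP-1 targets, gave 156 and 200 units in doxycycline-treated 8534 and 8542 cells, against 66.8 and 71.4 units in untreated cells. That was a rise past 2-fold in both lines, which averaged 1.35 ± 0.18 on the log2 scale (SD, n = 2 lines; adjusted p = 0.00567 in limma). A second Jdp2 probe set had changes of -0.41 and -0.67 and was not called (adjusted p = 0.551). The CNC factors Nfe2l1 (0.72 in 8534 and 0.82 in 8542, limma adjusted p = 0.011) and Nfe2l3 (0.51 and 0.72, adjusted p = 0.0379), which pair with small MAF proteins such as MafF, also rose. Atf4, the stress-response factor upstream of Atf3, had log2 changes of 0.03 in 8534 and -0.25 in 8542 and was not called (adjusted p = 0.679).

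Of 38 other immediate early genes 36 were tested, and 10 rose (27.8%, against 4.76% of all genes tested) and 1 fell (2.78%, against 6.95%), with a median log2 change of 0.40 in 8534 and 0.21 in 8542. Of those called, the 4 with the largest mean rise were Errfi1, a feedback inhibitor of the EGF receptor (1.89 in 8534 and 1.67 in 8542, limma adjusted p = 0.000568), Btg2, an antiproliferative p53 target (1.35 and 1.23, 0.00175), Sgk1, a serum- and glucocorticoid-induced kinase (1.28 and 1.11, 0.00517), and Gadd45b, a stress sensor (0.51 and 1.43, 0.0309). Ier5 fell, by 0.53 in 8534 and 0.60 in 8542 on the log2 scale (adjusted p = 0.0223). The relatives of Egr1 were not called. Egr2 had changes of 0.14 and -0.10 (adjusted p = 0.969), and Egr3 gave 65.6 and 63.7 units with doxycycline, against 72.5 and 180 units untreated (adjusted p = 0.183). A second Egr3 probe set had changes of -0.24 and 0.49 (adjusted p = 0.835), and the mean of both probe sets was -0.35 on the log2 scale, against -0.82 for the lead one. Dusp1, the phosphatase that switches off JNK and p38, had changes of 0.10 and 0.88 (adjusted p = 0.172).

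Of 20 kinases and SRF cofactors that act upstream of Fos and Jun, 16 were tested, of which 2 rose (12.5%, against 4.76% of all genes tested) and 0 fell (against 6.95%). Elk3, an ETS partner of SRF, gave 237 and 157 units in doxycycline-treated 8534 and 8542 cells, against 81.5 and 57.1 units in untreated cells, a rise that averaged 1.50 ± 0.06 on the log2 scale (SD, n = 2 lines; adjusted p = 0.00331 in limma). Map2k3, a kinase that activates p38, rose by 0.81 in 8534 and 0.61 in 8542 (adjusted p = 0.0231). Srf itself had changes of 0.41 and 0.42 and was not called (adjusted p = 0.117). Of 10 proteins that bind, degrade or restrain AP-1 and EGR1, 9 were tested, of which 1 rose (11.1%, against 4.76%) and 0 fell (against 6.95%). It was Fbxw7, the substrate receptor of a ubiquitin ligase that degrades JUN and also NOTCH1 (0.67 and 0.60, adjusted p = 0.0414). The EGR1 corepressors Nab1 (-0.10 and -0.09) and Nab2 (-0.14 and 0.21) were not called (adjusted p = 0.701 and 0.924). Of these called genes, Jdp2, Nfe2l3, Ier5, Gadd45b, Elk3, Map2k3 and Fbxw7 each had at least 1 other probe set that was not called, and the mean of all probe sets of each did not pass. With no filter on low values Nfe2l3, Gadd45b and Fbxw7 did not pass (adjusted p = 0.0565, 0.066 and 0.0583).

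Of 26 genes listed as AP-1 targets 21 were tested, of which 2 rose (9.52%, against 4.76% of all genes tested) and 2 fell (9.52%, against 6.95%). With 21 genes these shares are near those of all genes, and the called genes are given for their own values, not as a result about the list. Hmox1, the heme oxygenase of the oxidative stress response, rose by 1.43 in 8534 and 2.10 in 8542 on the log2 scale (limma adjusted p = 0.00473). Plaur, the urokinase receptor, gave 255 and 62.6 units with doxycycline, against 88.9 and 39.8 units untreated (adjusted p = 0.0414). It did not pass with quantile normalization (adjusted p = 0.0522), with no filter (0.0768) or with gene means (0.0569). Ccnd1, which encodes cyclin D1 and has many other inputs, NOTCH among them, gave 827 and 941 units with doxycycline, against 5899 and 6912 units untreated, a ratio of untreated to doxycycline of 7.13 in 8534 and 7.35 in 8542 (adjusted p = 7.86e-05). Tgfb1 fell by 0.92 and 0.91 (adjusted p = 0.005), on its lead probe set only. The list's median log2 change was 0.77 in 8534 and -0.08 in 8542, and 8 of the 21 had opposite signs, a share of 38.1% against 32.4% of all genes tested. Of those 8, 6 were up in 8534 and down in 8542, against 2509 of the 4886 genes tested that had opposite signs. With so few genes this is not read as a result about the list. Chosen after their values were seen, Mmp9 gave 46.6 and 6.87 units with doxycycline, against 8.06 and 26.9 units untreated, and Mmp12 46.1 and 2.72 units with doxycycline, against 10.5 and 12.4 units untreated. Both are matrix metalloproteinases, both values are low on these arrays, the treated 8542 array of Mmp12 is under the floor, and neither gene was called (adjusted p = 0.909 and 0.991). The gap between the lines was not tested for them either.

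Of 10 genes listed as EGR1 targets 7 were tested, of which 2 rose (28.6%, against 4.76% of all genes tested) and 3 fell (42.9%, against 6.95%). Pdgfb, a growth factor subunit, gave 909 and 558 units in doxycycline-treated 8534 and 8542 cells, against 270 and 156 units in untreated cells, a rise that averaged 1.80 ± 0.06 on the log2 scale (SD, n = 2 lines; adjusted p = 0.000584 in limma). Fn1, which encodes fibronectin, rose by 0.58 in 8534 and 1.40 in 8542 (adjusted p = 0.0163). Id3, an inhibitor of basic helix-loop-helix factors, fell by 1.08 and 0.62 (adjusted p = 0.0108), Pdgfa fell by 0.62 and 0.91 (adjusted p = 0.015), and the third was Tgfb1, which both target lists hold. The list's median log2 change was -0.52 in 8534 and 0.21 in 8542. Its called members thus went both ways, while Egr1 itself was not called.

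**Figure D4:**
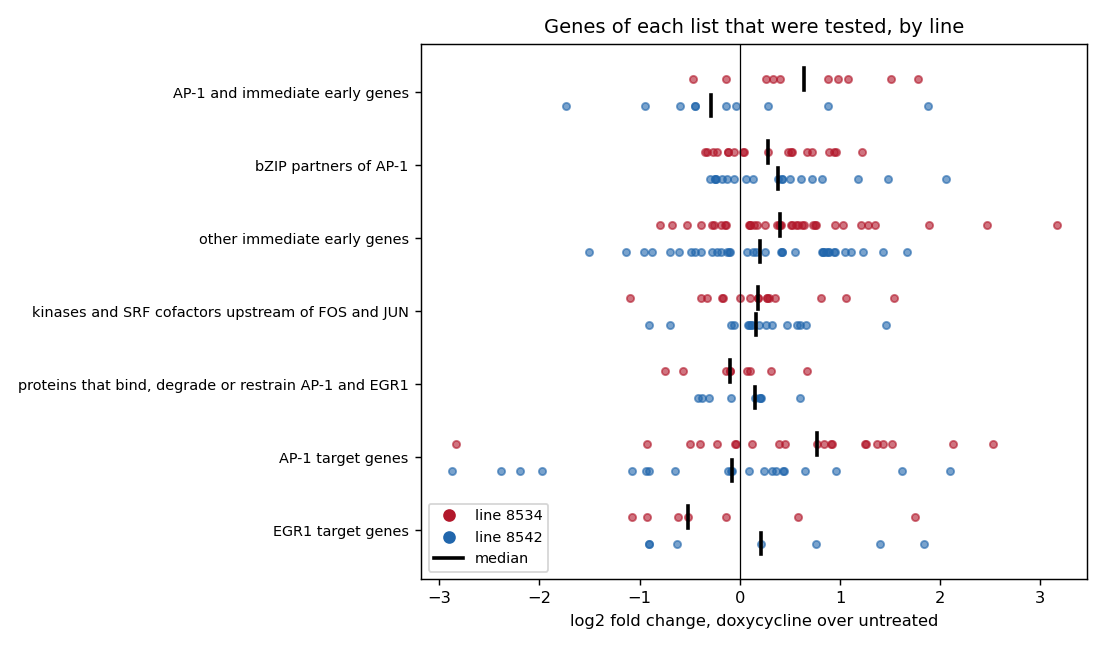
Each point is the log2 fold change of doxycycline over untreated for 1 gene that was tested, in line 8534 (red) and line 8542 (blue), for the 10 members and the 6 other lists, and the black bars are medians. The medians of the members (0.64 and -0.29) and of the AP-1 targets (0.77 and -0.08) are above 0 in 8534 and below in 8542. Those of the EGR1 targets (-0.52 and 0.21) and of the proteins restraining AP-1 and EGR1 (-0.09 and 0.15) lie the other way. The bZIP partners (0.29 and 0.39), other immediate early genes (0.40 and 0.21) and upstream kinases and cofactors (0.18 and 0.16) have both medians above 0.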

How the data were processed

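Total RNA of lines 8534 and 8542, each with and without doxycycline, was hybridised to 4 Affymetrix arrays by the authors, 1 array per line and condition. The table holds 45101 probe sets, which is the content of the full mouse array and not of the A version that the methods name. The deposited values are log2 signals that the authors made with MAS5, with a version and scaling target not given in the sources used here. That the base of the logarithm is 2 was inferred from the values.

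After 64 control probe sets were left out, 34945 of 45037 probe sets had 1 gene symbol in the platform annotation, 932 several and 9160 none. Values are printed as units (2 to the power of the log2 value). Doxycycline was compared with untreated in limma 3.58.1 (R 4.3.3; lmFit, eBayes with trend), with cell line as a block, on the 33778 probe sets with a mean log2 value of at least 2.94, the 25th percentile, and p-values were adjusted over all of them. It left 1 residual degree of freedom, with 6.18 prior degrees of freedom. The p-values rest on the spread between the 2 lines, moderated over probe sets, and array noise is part of that spread. Line pairs the arrays by origin, and deviations from the mean of a condition correlated between both arrays of a line (r = 0.363 over probe sets tested, which are not independent). The number of arrays limits the precision. The fit was tested on simulated data in which 100 of 33778 probe sets changed by 1 and 100 by 2 on the log2 scale. Of these, 28% and 68% were called, and 15% of the calls were false, a larger share than the threshold names. Far fewer probe sets were changed than the 1245 and 1872 called in the data, so these shares need not hold for the real fit.

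The members and gene lists were chosen with earlier results of these data known. In the other lists, the called genes with the largest mean change, up to 4 per direction, were named, plus Srf, Egr2, Egr3, Nab1, Nab2, Dusp1, Atf4 and Jdp2 whatever their change, and Hey1 and Hes1 as a check. Mmp9 and Mmp12 were named outside this rule, after their values were seen. Values were not floored and no pseudocount was added, except in the alternatives: other filters, a floor or a pseudocount at the 20th percentile, quantile normalization, median centring, no intensity trend, no line term, the mean of all probe sets of a gene, and leaving out a line or an array.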

Additional observations from a re-analysis of the deposited data

Results flagged for a closer look

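In 8 of the members and of the genes named whatever their change, the change with doxycycline was positive in one line and negative in the other. With 1 array per line and condition the difference was not tested in any of them. As the change in 8534 minus that in 8542 on the log2 scale, it was 2.82 for Fosl1 (1.08 and -1.73), 2.22 for Maff (1.78 and -0.45), 1.93 for Fosb (0.98 and -0.94), 0.436 for Junb (0.40 and -0.03) and 0.399 for Fos (0.26 and -0.13). Among the other named genes it was 0.239 for Egr2 (0.14 and -0.10), 0.279 for Atf4 (0.03 and -0.25) and -0.352 for Nab2 (-0.14 and 0.21). Opposite signs were found in 32.4% of all genes tested. For Fosl1 the treated 8542 value of the lead probe set was near the floor. The second Fosl1 probe set had the same signs as the lead one (0.12 and -0.79).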

How the results depend on the processing

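The calls of Fosl2 and Atf3 held under the floor, the pseudocount, the median filter, quantile normalization, median centring and the mean of all probe sets (Fosl2: mean change 1.18, adjusted p = 0.00765), and members called higher were 1 with no filter. Without the intensity trend 0 members were called, and of all probe sets 0 were higher and 0 lower, against 1245 and 1872 with it, although 2444 and 2846 had an unadjusted p under 0.05. The fit with line as a block stands in the report. With no replicate block 0 members were called, and of all probe sets 9 were higher and 83 lower. Without the block and with 1 array left out, an alternative chosen after seeing the data in which the lone array is assumed to vary like the others, 0 members were called, and of all probe sets 0 to 5 were higher and 0 to 252 lower. Members called lower were 1 (Jun) with the median filter, 1 with the floor and 1 with the pseudocount. They were 0 in the main fit and with no filter, quantile normalization, median centring or gene means. By the 2-fold rule 1551 probe sets were higher and 1980 lower, against 832 higher with the floor and 627 higher and 1098 lower with the pseudocount. Read in 1 line alone, 5156 to 5254 were higher and 5050 to 5702 lower, and of the members 1 to 3 were higher and 0 to 1 lower. The mean change turned its sign for Fosb with the pseudocount (-0.00112, adjusted p = 0.999) and for Atf4 with the mean of all probe sets (0.14, adjusted p = 0.756), neither of them called. The cause was not tested. Fosb, Fosl1 and Maff were the least precise, with standard errors of 0.49, 0.64 and 0.49 on the log2 scale, against 0.11 to 0.19 for the other members.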
